A study of Caenorhabditis elegans with 16 samples.

Results

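Wild-type Caenorhabditis elegans of the N2 Bristol strain were measured at day 8, labelled old (D8), and as young adults, labelled young (YA), in both cases with free access to food. The comparison uses 8 of the 16 libraries in the series, chosen by label alone: 4 D8_Fed and 4 YA_Fed. The remaining 8 libraries hold animals of the same ages fasted for 6 hours, and their values are printed only where fasting is named. They also entered the filter, the scaling and the estimate of spread, so they bear on each standard error and adjusted p. Animals of all groups were kept on nematode growth medium at 20 °C, and polyA RNA was taken from whole nematodes. The labels used here do not say how many animals went into a library, how ageing adults were kept apart from their progeny, or whether replicates were separate cultures. The p-values therefore measure only the spread between libraries within each group, estimated over all 16 libraries, which may be technical. The position codes in the library names differ between the ages throughout, so whatever they mark and age cannot be told apart.

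An adult hermaphrodite first makes a limited stock of sperm and then switches its germ line to oocytes, which are filled with yolk proteins made in the intestine. Fertilised eggs begin development inside the mother, so a whole-animal library of an adult can also hold embryo RNA. Egg laying stops early in adult life, while muscle, intestine and pharynx are formed of cells that no longer divide and that decline over the following weeks. The cuticle that covers the animal is a collagen matrix secreted by the epidermis. In such whole-animal samples, fewer cells of a type and less RNA per cell give the same reading and cannot be told apart.

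Estimated counts were deposited for 21882 genes. Library totals, in units of 1e6 counts, were 80.7, 91.1, 117.7 and 106.5 in D8_Fed libraries 1 to 4, against 76.9 to 90.4 in the YA_Fed libraries, and 18993 to 20764 genes were above 0 in D8_Fed libraries, against 18215 to 18434 in YA_Fed libraries. Of 17844 genes tested with edgeR's quasi-likelihood test, 5481 were called higher at day 8 (30.7%) and 6177 lower (34.6%) at an adjusted p under 0.05, or 65.3% in either direction, and the libraries of the 2 ages did not overlap for 61.9%. By at least 2-fold, 3172 were higher (17.8%) and 4030 lower (22.6%). These shares are the background for each count below, and the median log2 fold change of all tested genes was -0.01. With library totals as the only scaling that median was 0.51 and 69.6% of calls were higher, against 47.0% with TMM scaling, so small differences are relative to the TMM scale.

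Age separated the 8 libraries along the first principal component, with 85.7% of the variance, and the second, with 7.44%, separated D8_Fed libraries 1 and 2 from 3 and 4. The median SD of log2 CPM was 0.323 over the 4 D8_Fed libraries, against 0.113 over the 4 YA_Fed libraries, yet only 0.115 within D8_Fed 1 and 2 and 0.0852 within 3 and 4. In D8_Fed libraries 3 and 4, 1778 genes were at least 2-fold above both D8_Fed 1 and 2, and 117 genes stood the other way round. The fasted day 8 libraries fell into the same pairs: deviations from the group mean correlated at 0.16 between D8_Fast 1 and 2 and 0.30 between 3 and 4, against -0.57 to -0.69 across the pairs. The labels give no reason for these pairs. Values over each pair are given for many lists and drawn in the plot of list medians, and p-values treat the 4 libraries as replicates.

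**Figure D1:**
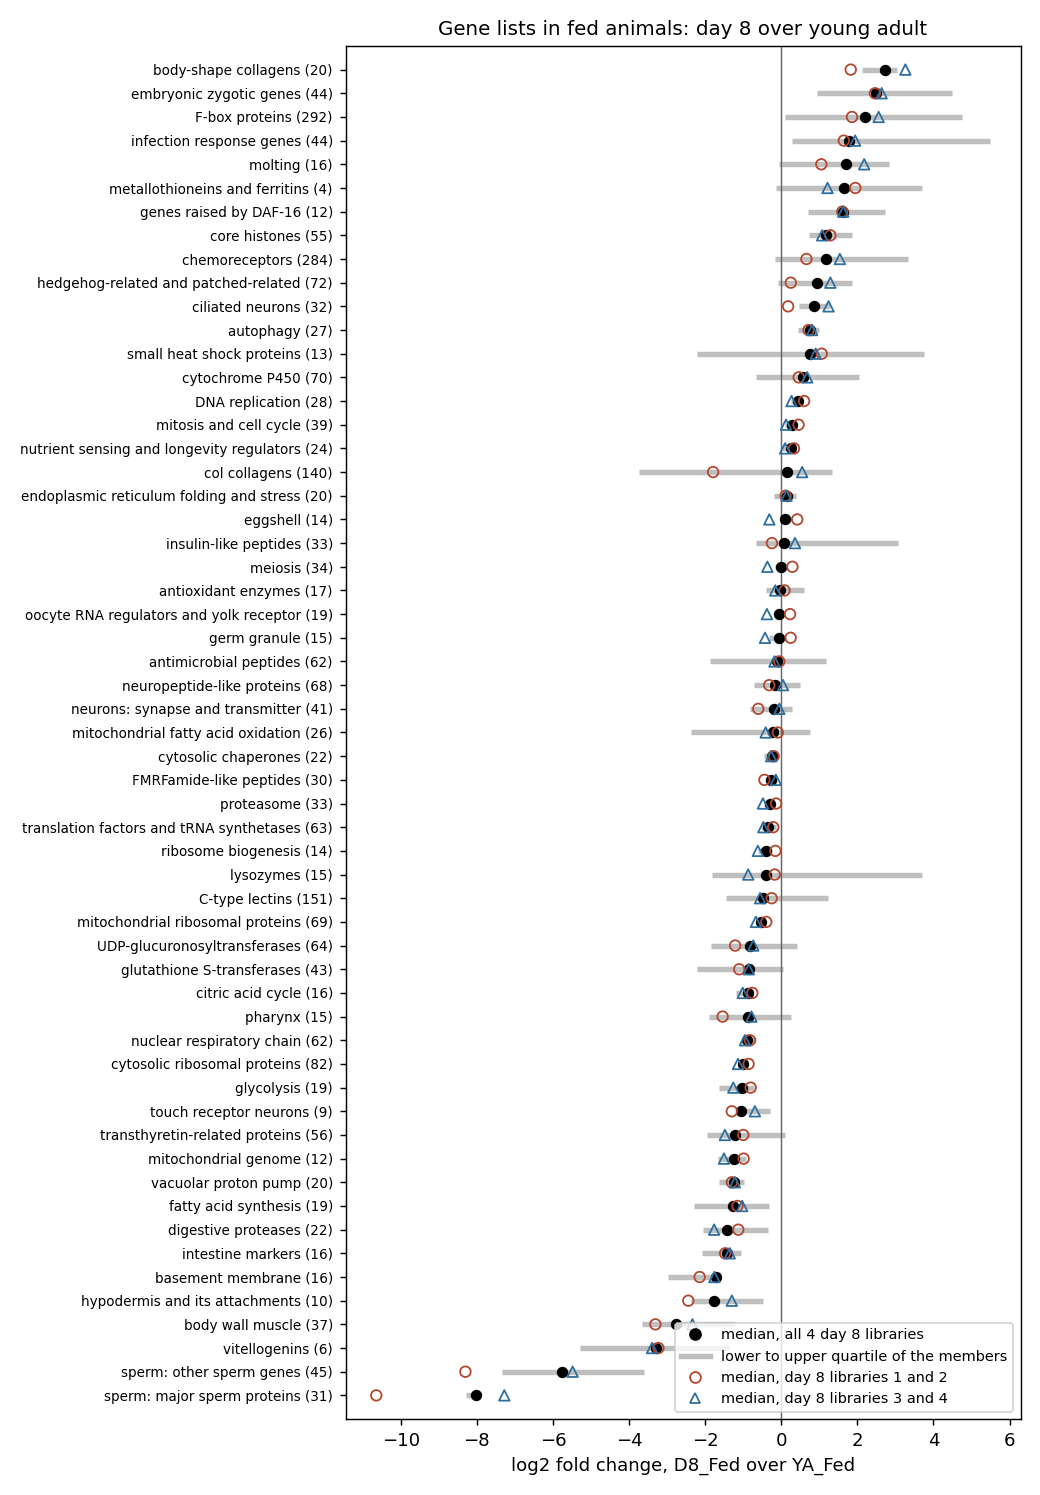
Median log2 fold change of each gene list, D8_Fed over YA_Fed, with the number of tested members in parentheses. Black points use all 4 day 8 libraries, grey bars span the lower to upper quartile of the members, open circles use day 8 libraries 1 and 2, and open triangles use 3 and 4. Sperm lists lie lowest, muscle and basement membrane lists are below 0 in both pairs, body-shape collagen and embryonic lists are above 0 in both, and col collagens differ in sign between the pairs.

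The largest falls were in sperm. All 31 tested genes for major sperm proteins, which form the cytoskeleton that lets nematode sperm crawl and which also signal to oocytes, fell by at least 2-fold at day 8, with a median log2 fold change of -8.02. Together they summed to 1.69, 2.37, 33.5 and 5.37 CPM in the D8_Fed libraries, against 3171, 3266, 3227 and 3069 CPM in the YA_Fed libraries. No D8_Fed library came near the young range, and library 3 held most of the remaining signal. Without it the median was -9.96. One of these genes, msp-59, had 0.0598, 0.102, 1.91 and 0.349 CPM at day 8, against 193 to 204 CPM in young adults (log2 fold change -8.22 ± 0.78 SE, adjusted p = 1.59e-07; -9.96 without D8_Fed library 3). The coding sequences of this family are nearly identical, so reads can be split among its members and single values are uncertain.

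Of 45 other tested genes with roles in sperm, 45 fell and 44 of them by at least 2-fold, with a median of -5.76 that was -6.87 without D8_Fed library 3. The list summed to 18.3 to 40.3 CPM at day 8, against 1016 to 1076 CPM in young adults. Its member nspd-2, a nematode-specific peptide gene, had 0.0239, 0.0406, 0.926 and 0.0892 CPM in D8_Fed libraries, against 73.3 to 79.8 CPM in YA_Fed libraries (-7.98 ± 0.79, adjusted p = 2.53e-07; -10.33 without D8_Fed library 3). All D8_Fed libraries again lay far below the young ones, with library 3 the highest of them.

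Few oocyte genes were called. Of 19 genes for oocyte RNA regulators and the yolk receptor, 1 rose, 2 fell and 16 were not called, with a median of -0.05 that was 0.23 over D8_Fed libraries 1 and 2 and -0.38 over 3 and 4. The kinase gene mbk-2, which starts the change of oocyte to embryo, rose to 607, 580, 496 and 496 CPM at day 8, against 392 to 395 CPM in young adults (0.47 ± 0.09, adjusted p = 2.72e-04). The translational repressor gld-1 had 1084, 977, 656 and 616 CPM at day 8 and 1192 to 1210 CPM in young adults (-0.53 ± 0.20, adjusted p = 0.0308), a call that was lost without D8_Fed library 3 or 4 and under 3 other scalings. The yolk receptor rme-2 ranged over 736 to 1314 CPM at day 8, against 988 to 1102 CPM, so the groups overlapped.

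Of 14 eggshell genes 2 rose and 12 were not called, with a median of 0.42 over D8_Fed libraries 1 and 2 and -0.31 over 3 and 4. The permeability barrier genes perm-4 and perm-2 were the 2 that rose, perm-4 with 1405 to 1607 CPM at day 8 against 767 to 820 CPM (0.92 ± 0.07, adjusted p = 1.97e-08). Among 15 germ granule genes 2 rose and 3 fell, and glh-1, a helicase of these granules, fell to 411, 392, 276 and 290 CPM at day 8, against 820 to 839 CPM in young adults (-1.28 ± 0.16, adjusted p = 2.55e-06). For meiosis, 3 of 34 genes rose, 2 fell and none passed 2-fold. The median signs of the oocyte, granule and meiosis lists changed between scalings and between the pairs of day 8 libraries.

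DNA replication and cell cycle genes were modestly higher at day 8. Of 28 replication genes 21 rose, 0 fell and none reached 2-fold (median 0.45). The licensing factor cdt-1 had 123 to 138 CPM at day 8, against 67.0 to 70.5 CPM in young adults (0.92 ± 0.07, adjusted p = 6.93e-09), with no overlap. Of 39 mitosis and cell cycle genes 22 rose and 0 fell. The 2 that passed 2-fold drive entry into the cycle: cyclin D, cyd-1, had 41.3, 37.8, 82.0 and 93.3 CPM, against 6.06 to 7.26 CPM (3.24 ± 0.28, adjusted p = 4.90e-08), and its kinase cdk-4 had 15.1 to 16.0 CPM, against 6.68 to 7.25 CPM (1.17 ± 0.09).

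Histone RNA in these polyA libraries was also higher at day 8, with 36 of 55 tested his genes called higher, 32 of them by at least 2-fold, and 4 lower. Their summed level was 1156, 1169, 1229 and 1352 CPM at day 8, against 529 to 562 CPM in young adults. The linker histone his-24 (chromosome X, 14490094 to 14491119) rose to 342, 297, 443 and 487 CPM, against 8.85 to 11.4 CPM (5.27 ± 0.17, adjusted p = 8.00e-13). The histone H3.3 gene his-72 rose to 318 to 381 CPM, against 140 to 146 CPM (1.26 ± 0.06). Many core histone genes are near-identical copies, so counts of single members are uncertain.

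RNA of genes first transcribed in embryos was higher at day 8. Of 48 genes on the embryonic list 44 were tested, 30 rose, all of them by at least 2-fold, and 2 fell. They summed to 279, 295, 338 and 337 CPM at day 8, against 92.3, 91.7, 92.8 and 93.4 CPM in young adults, with 31 of 48 genes higher in every D8_Fed library than in any YA_Fed library and 3 lower. None was at 0 in all D8_Fed libraries, and only 1 was at 0 in all YA_Fed libraries. The endoderm-specifying genes med-1 and med-2 had only 4 and 6 counts over the 4 D8_Fed libraries, against 8 and 2 over the YA_Fed libraries. Their targets end-1 and end-3 had 86 and 187 counts at day 8, against 23 and 62. These counts are not scaled for library totals, and both genes were near the floor. In CPM end-1 overlapped between the ages, at 0.0511 to 0.257 at day 8 against 0 to 0.222 in young adults. For end-3 the ranges were 0.280 to 0.567 CPM and 0.171 to 0.272 CPM.

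The metalloprotease of egg hatching, hch-1 (chromosome X, 14696411 to 14699977), showed the largest rise of any gene named here. It had 34.5, 28.03, 89.1 and 90.9 CPM in D8_Fed libraries, against 0.0799, 0.0288, 0 and 0.0164 CPM in YA_Fed libraries (log2 fold change 10.91 ± 0.72, adjusted p = 2.60e-09; 11.88 without YA_Fed library 1). Since the young libraries together hold only 8 counts of it, the fitted size rests on few counts. Early zygotic transcripts were higher too: vet-2 had 53.7 to 69.6 CPM at day 8, against 11.8 to 13.2 CPM (2.26 ± 0.12), and sdz-28 had 17.3 to 24.3 CPM, against 0.519 to 1.06 CPM (4.94 ± 0.23). More members rose than fell in the histone, cell cycle, body-shape collagen, molting, hedgehog-related and ciliated neuron lists too. From D8_Fed libraries 1 and 2 to 3 and 4, the median log2 difference was 0.07 for the embryonic list. It was -0.31 for histones and -0.33 for cell cycle genes. For the body-shape collagen, molting, hedgehog-related and ciliated neuron lists it was 1.10 to 1.60. The part of embryo RNA in the rises of these lists was not tested.

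**Figure D2:**
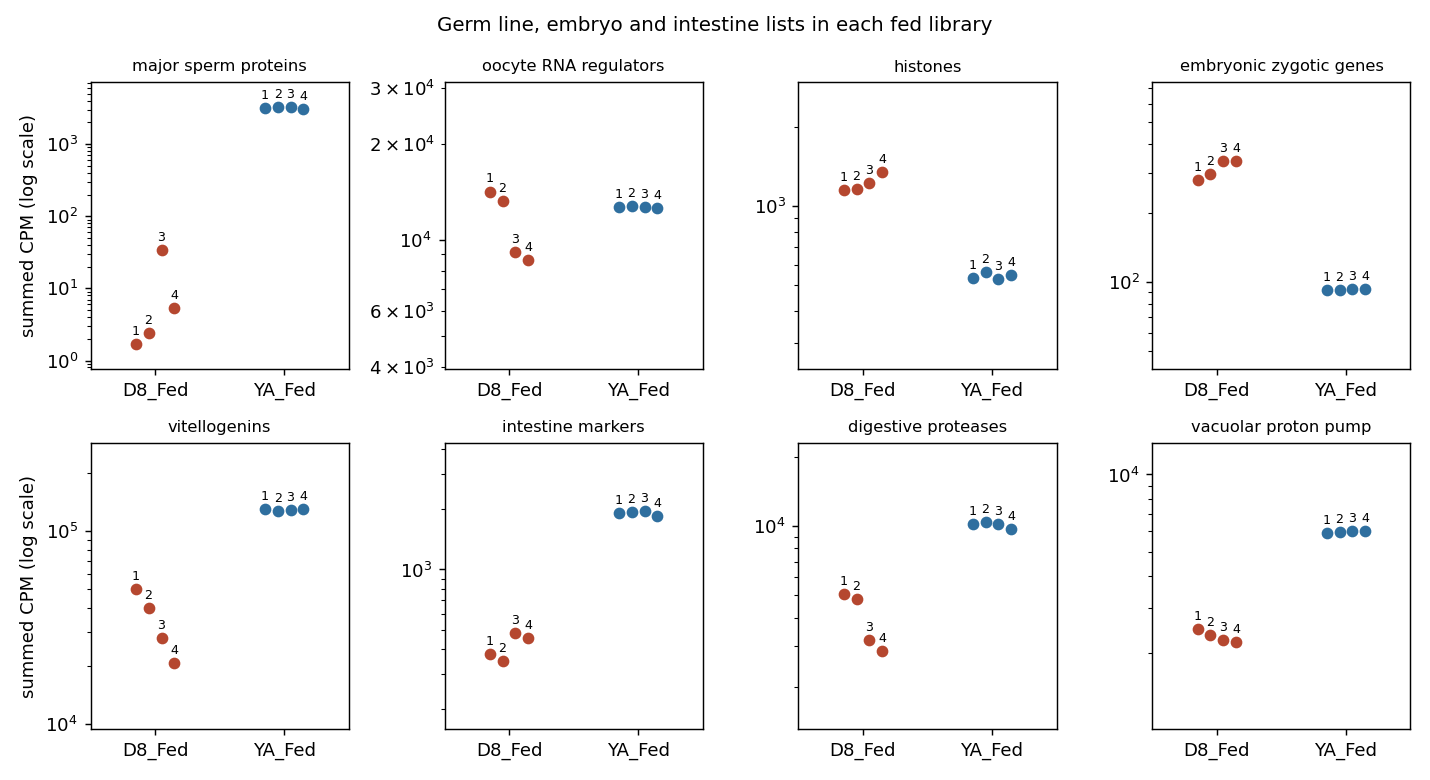
Summed CPM (log scale) of 8 gene lists in each library, D8_Fed at left in red and YA_Fed at right in blue, with the replicate number above each point. The major sperm protein sum is 1.69 to 33.5 CPM at day 8, against 3069 to 3266 CPM in young adults, while the oocyte sums of both ages overlap and the embryonic sum is higher at day 8.

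Yolk protein RNA fell. All 6 vitellogenin genes, whose products carry lipid to oocytes, were lower at day 8, with a median of -3.29. They summed to 50195, 39693, 28007 and 20658 CPM at day 8, against 127388 to 129486 CPM in young adults. The members split by size of change. The fall was large for vit-3 (chromosome X, 3567355 to 3572549), which had 226, 169, 525 and 294 CPM, against 15474 to 15764 CPM (-5.69 ± 0.43, adjusted p = 1.40e-08). Similar falls were measured for vit-1 (-5.41 ± 0.21) and vit-4 (-4.95 ± 0.32). It was smaller for vit-6, with 16055, 12756, 8557 and 6649 CPM, against 33058 to 35372 CPM (-1.63 ± 0.23), and for vit-2 (-1.29 ± 0.13). The level of vit-5 was 17812, 14178, 5791 and 4011 CPM, against 21725 to 22070 CPM (-1.07 ± 0.41, adjusted p = 0.0326), and its call was lost without D8_Fed library 3 or 4 and with library totals as the only scaling. Genes such as vit-3, vit-4 and vit-5 are close copies, which limits the certainty of each single value.

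Other intestinal RNA fell with the yolk genes. Of 16 intestine markers 14 fell, 12 by at least 2-fold, and 1 rose, and the list summed to 379, 347, 483 and 451 CPM at day 8, against 1853 to 1955 CPM. The actin of the microvilli, act-5, had 87.2, 75.6, 151 and 144 CPM, against 768 to 825 CPM (-2.81 ± 0.27, adjusted p = 1.51e-07). The apical proton pump subunit vha-6 had 51.0 to 61.0 CPM, against 354 to 379 CPM (-2.72 ± 0.08), and the exchanger nhx-2 fell by 2.51 ± 0.12 on the log2 scale. The rise was in the drug efflux pump pgp-1, with 23.1 to 34.6 CPM, against 3.17 to 3.62 CPM (3.05 ± 0.20).

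Digestive enzymes and the acidifying pump were lower as well. Of 22 tested digestive proteases 14 fell and 5 rose. The aspartic protease asp-2 had 52.1 to 70.5 CPM at day 8, against 617 to 656 CPM (-3.38 ± 0.09, adjusted p = 1.58e-13), and asp-1 had 523 to 660 CPM, against 2149 to 2308 CPM (-1.96 ± 0.09). The cathepsin B-like cpr-3 rose to 16.2 to 21.8 CPM, against 2.73 to 3.50 CPM (2.60 ± 0.12). Its relative cpr-1 was raised in only 2 day 8 libraries, with 692, 718, 221 and 164 CPM, against 207 to 218 CPM (1.08 ± 0.45, adjusted p = 0.0467), and was not called when D8_Fed library 1 or 2 or any 1 YA_Fed library was left out. Of 20 subunits of the vacuolar proton pump, which acidifies lysosomes and the gut lumen, 18 fell and 14 of these by at least 2-fold (median -1.25). The membrane subunit vha-5 had 27.9 to 39.2 CPM, against 207 to 214 CPM (-2.64 ± 0.14).

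Body wall muscle genes fell. Of 37 tested muscle genes 32 fell, 30 by at least 2-fold, and 2 rose, with a median of -2.77. The list summed to 2837, 2541, 3799 and 3555 CPM at day 8, against 24078 to 24944 CPM in young adults. The main myosin heavy chain, unc-54, had 344, 243, 480 and 378 CPM, against 6157, 5977, 6142 and 6648 CPM (-4.11 ± 0.19, adjusted p = 6.09e-11). Troponin T, tnt-2, had 26.3, 21.9, 53.7 and 52.7 CPM, against 943 to 982 CPM (-4.64 ± 0.33), and troponin I, unc-27, had 33.7 to 43.7 CPM, against 711 to 743 CPM (-4.23 ± 0.09). In each of these genes the groups stood far apart, with D8_Fed libraries 3 and 4 above 1 and 2. The integrin gene pat-3, which anchors muscle to the matrix, instead rose to 261 to 300 CPM, against 204 to 211 CPM (0.45 ± 0.07).

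In the pharynx, the feeding organ, 8 of 15 genes fell and 3 rose. Its 2 own myosins fell, myo-1 to 60.5, 47.6, 84.7 and 71.8 CPM against 438 to 453 CPM (-2.75 ± 0.18) and myo-2 to 55.5 to 102 CPM against 355 to 386 CPM (-2.22 ± 0.17). By contrast, eat-20 rose to 49.6 to 55.8 CPM, against 28.5 to 30.9 CPM (0.83 ± 0.06). Of 16 basement membrane genes 15 fell, 13 by at least 2-fold. Both type IV collagens fell, let-2 to 178, 137, 177 and 141 CPM against 2031 to 2061 CPM (-3.69 ± 0.10, adjusted p = 1.31e-13) and emb-9 with a fold change of -3.59 ± 0.10. Perlecan, unc-52, had 50.7, 22.4, 109 and 76.6 CPM, against 1034 to 1162 CPM (-4.09 ± 0.42). Laminin alpha, lam-3, was the 1 member that rose (0.83 ± 0.26, adjusted p = 0.0114), and it was not called over D8_Fed libraries 1 and 2 alone, where the fold change was 0.19.

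**Figure D3:**
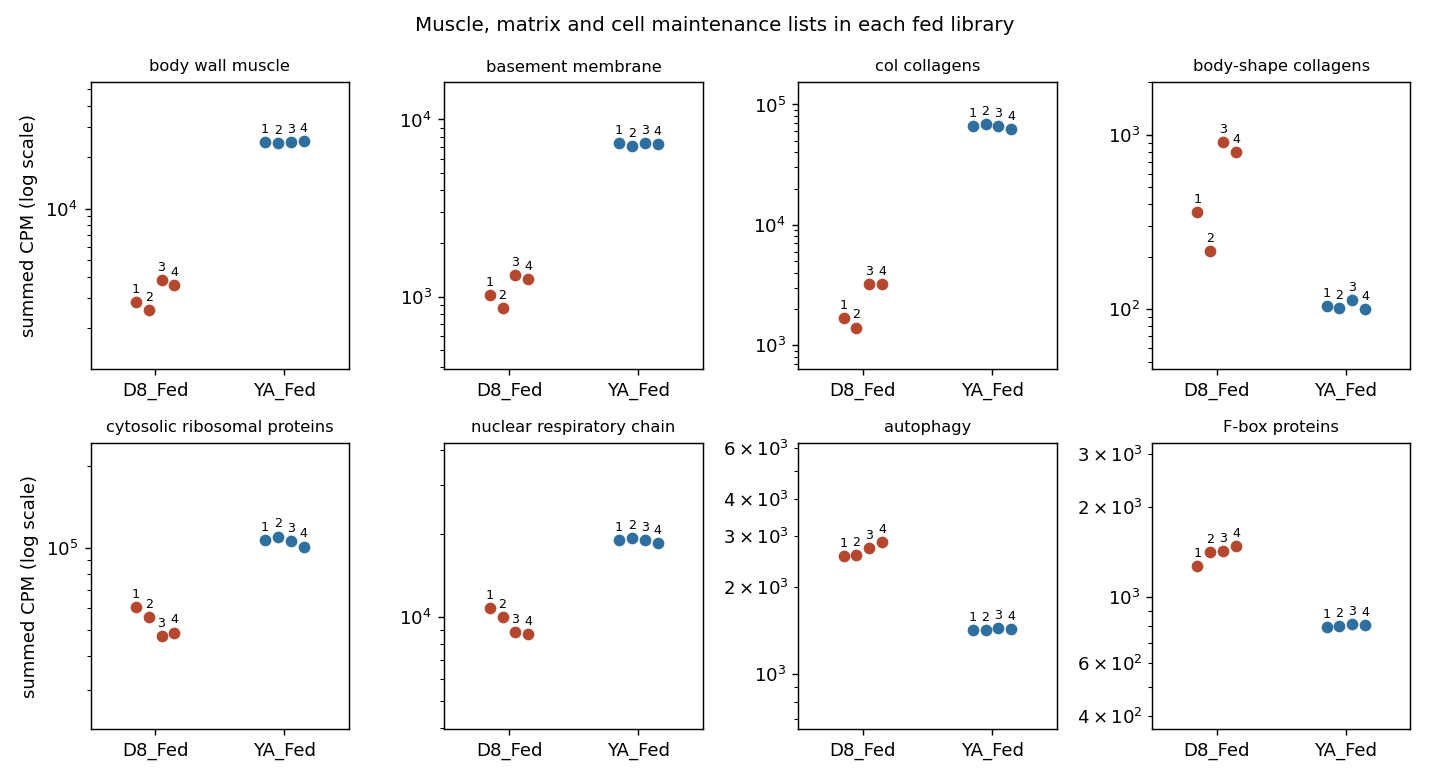
Summed CPM (log scale) of 8 gene lists in each library, D8_Fed at left in red and YA_Fed at right in blue, with the replicate number above each point. Muscle, basement membrane and col collagen sums are lower in all 4 D8_Fed libraries, body-shape collagen, autophagy and F-box sums are higher, and D8_Fed libraries 3 and 4 lie above 1 and 2 for the muscle and collagen lists.

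Cuticle collagens changed in opposite directions. The col genes encode most collagens of the cuticle. Of 140 tested col genes 54 fell (38.6%) and 30 rose (21.4%), against 34.6% and 30.7% of all genes, so the count of falls is near that share. By at least 2-fold 53 fell (37.9%) and 30 rose (21.4%), against 22.6% and 17.8% of all genes. The col genes summed to 1696, 1402, 3195 and 3229 CPM at day 8, against 62904 to 69415 CPM in young adults. The abundant col-124 (chromosome IV, 10216451 to 10217617) had 11.0, 9.60, 32.5 and 25.7 CPM, against 5507 to 5978 CPM (-8.18 ± 0.57, adjusted p = 5.09e-09). Its relative col-140 had 51.7 to 73.2 CPM, against 4548 to 5049 CPM (-6.33 ± 0.23). Others rose at lower levels, among them col-41 with 18.2, 8.43, 45.2 and 35.8 CPM, against 0.0492 to 1.04 CPM (5.46 ± 0.75). The list's median of 0.16 depended on the libraries, being -1.79 over D8_Fed 1 and 2 and 0.55 over 3 and 4, with 20 members higher and 76 lower by at least 2-fold in the one pair, against 52 and 49 in the other.

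Collagens that shape the body during larval growth were higher at day 8. Of 20 dpy, rol, sqt and related genes 17 rose and all 17 passed 2-fold, with a median of 2.71 (1.83 over D8_Fed 1 and 2, 3.26 over 3 and 4). Their sum was 362, 217, 910 and 793 CPM at day 8, against 100 to 113 CPM in young adults. The embryonic collagen dpy-14 had 39.7, 37.2, 114 and 112 CPM, against 0.192 to 0.419 CPM (8.06 ± 0.55, adjusted p = 3.81e-09), and dpy-17 had 32.9 to 89.4 CPM, against 2.03 to 2.85 CPM (4.66 ± 0.39). All D8_Fed libraries lay above all YA_Fed libraries for both. Genes of the molt, during which larvae replace the cuticle, rose in 12 of 16 cases and fell in 4. Fibrillin-like fbn-1 had 75.1, 65.7, 207 and 179 CPM, against 3.18 to 3.62 CPM (5.25 ± 0.41), and the cuticle protein noah-1 had 72.3 to 220 CPM, against 7.30 to 10.2 CPM (4.01 ± 0.39). The peroxidase mlt-7 fell to 10.7 to 12.9 CPM, against 33.1 to 35.7 CPM (-1.53 ± 0.08).

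Hedgehog-related and patched-related genes, which in nematodes act in epidermis and secretion, moved in both directions. Of 72 tested members 32 rose and 13 fell. Over D8_Fed libraries 1 and 2, 15 members were higher and 12 lower by at least 2-fold, against 34 and 8 over 3 and 4. Their sum was 676, 627, 801 and 780 CPM at day 8, against 927 to 953 CPM in young adults, so it was lower although more members rose than fell. The patched-related ptr-22 had 25.4, 27.8, 51.7 and 62.6 CPM at day 8, against 0.128 to 0.284 CPM (7.56 ± 0.49, adjusted p = 2.33e-09). The groundhog-like grd-3 had 0.418, 0.406, 2.17 and 3.26 CPM, against 160 to 171 CPM (-6.68 ± 0.62). Of 10 genes for the hypodermis and its attachments to muscle 7 fell and 2 rose. The intermediate filament mua-6 had 8.75 to 14.3 CPM, against 134 to 143 CPM (-3.61 ± 0.18), and the attachment protein let-805 had 64.0 to 117.7 CPM, against 385 to 413 CPM (-2.13 ± 0.22).

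Neuronal lists moved in both directions. Of 41 genes for synapses and transmitters 16 fell (39%), 7 by at least 2-fold (17.1%), and 7 rose (17.1%). The background was 34.6% lower, 22.6% lower by at least 2-fold and 30.7% higher, so the count of falls is no result about the list. Its median was -0.19, and 0.36 with library totals as the only scaling. The aromatic amine decarboxylase bas-1, which makes serotonin and dopamine, had 3.67 to 5.06 CPM at day 8, against 28.4 to 30.9 CPM (-2.76 ± 0.14, adjusted p = 1.42e-10). The GABA-making enzyme unc-25 had 4.26 to 7.15 CPM, against 12.8 to 15.0 CPM (-1.35 ± 0.17), and the presynaptic organiser syd-2 rose to 32.0, 31.8, 55.1 and 63.3 CPM, against 22.04 to 23.6 CPM (0.99 ± 0.21). Of 9 touch receptor genes 6 fell and 0 rose, with 6 lower by at least 2-fold over D8_Fed libraries 1 and 2 and only 2 over 3 and 4. Their tubulin mec-7 had 5.14, 4.15, 9.63 and 9.18 CPM, against 14.0 to 16.4 CPM (-1.12 ± 0.30), a call lost over D8_Fed 3 and 4 alone and with library totals only. The tubulin acetyltransferase mec-17 had 2.33 to 4.07 CPM, against 9.09 to 11.2 CPM (-1.70 ± 0.18).

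Of 32 ciliated neuron genes 14 rose and 1 fell. Over D8_Fed libraries 1 and 2, 4 were higher and 3 lower by at least 2-fold (median 0.18), against 22 and 0 over 3 and 4 (median 1.24). The transcription factor of cilium genes, daf-19, had 32.9 to 37.9 CPM at day 8, against 16.7 to 19.6 CPM (0.96 ± 0.10, adjusted p = 6.08e-07), and the dendrite anchor dyf-7 had 3.88, 3.88, 16.4 and 18.02 CPM, against 1.43 to 2.02 CPM (2.61 ± 0.53). Of 284 tested chemoreceptor genes, out of 1276 in the table, 122 rose and 30 fell, and those over 2-fold and higher were 72 in the first pair and 127 in the second. The filter needs enough counts only in as many libraries as 1 group holds, so a receptor could be tested through day 8 libraries alone. The counts of rises and falls among tested receptors depend on that selection and are no result about the family. All 1276 together summed to only 93.4 to 187 CPM at day 8, against 135 to 140 CPM. Among them sri-40 fell to 0.418, 0.122, 0.557 and 2.11 CPM, against 33.1 to 35.9 CPM (-5.39 ± 0.59; -6.45 without D8_Fed library 4).

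Peptide signals were mixed. Of 30 FMRFamide-like peptide genes 12 fell (40%) and 3 rose (10%). Of 68 neuropeptide-like genes 23 fell (33.8%) and 15 rose (22.1%), and of 33 insulin-like genes 7 fell (21.2%) and 13 rose (39.4%). The background was 34.6% lower and 30.7% higher, so the neuropeptide-like falls are at the share of all genes. The insulin-like median was -0.24 over D8_Fed libraries 1 and 2 and 0.36 over 3 and 4. The medians of the FMRFamide-like and neuropeptide-like lists changed sign with library totals as the only scaling. The insulin-like ins-2 had 5.00, 7.33, 16.8 and 16.5 CPM at day 8, against 0.0639, 0.0432, 0 and 0 CPM in young adults (8.68 ± 0.73, adjusted p = 4.41e-08; 9.47 without YA_Fed library 1). The epidermal defence peptide nlp-34 had 16.1, 28.2, 30.2 and 36.0 CPM, against 0.288 to 0.755 CPM (5.90 ± 0.36). The peptide nlp-24 fell to 2.35, 1.82, 5.68 and 7.38 CPM, against 55.7 to 58.5 CPM (-3.71 ± 0.47), and flp-28 to 11.7 to 12.1 CPM, against 18.2 to 20.5 CPM (-0.72 ± 0.08), a call lost with library totals only.

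RNA for cytosolic ribosomes fell. Of 82 cytosolic ribosomal protein genes 80 fell and 1 rose, with a median of -1.003, and 44 fell by at least 2-fold, a count of 6 over D8_Fed libraries 1 and 2 and 70 over 3 and 4. They summed to 60393, 55650, 47443 and 48878 CPM at day 8, against 100980 to 109865 CPM. The large-subunit gene rpl-3 had 2394, 2201, 1853 and 1866 CPM, against 3976 to 4282 CPM (-1.002 ± 0.09, adjusted p = 1.51e-07), and the small-subunit gene rps-7 had 706 to 894 CPM, against 1812 to 1926 CPM (-1.24 ± 0.10). The biogenesis factor rpl-24.2 was the 1 that rose (0.29 ± 0.06). For the nucleolus, fibrillarin, fib-1, fell to 443, 411, 272 and 279 CPM, against 769 to 797 CPM (-1.15 ± 0.18), and 9 of 14 ribosome biogenesis genes fell.

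Of 69 mitochondrial ribosomal protein genes 60 fell and 1 rose, with a median of -0.53. Among 63 translation factors and tRNA synthetases 44 fell and 2 rose, none by 2-fold, and their median of -0.34 was 0.17 with library totals as the only scaling. Elongation factor eef-1A.1 had 7127 to 9551 CPM, against 12422 to 13043 CPM (-0.65 ± 0.11, adjusted p = 7.67e-05). For eef-2 the fold change was -0.47 ± 0.10, and 0.05 and not called with library totals only.

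Genes of energy metabolism fell. All 62 nuclear genes of the respiratory chain fell, 20 by at least 2-fold, with a median of -0.91, as did all 12 protein genes of the mitochondrial genome (median -1.24). The ATP synthase beta subunit atp-2 had 1678, 1486, 1248 and 1164 CPM at day 8, against 3240 to 3343 CPM (-1.24 ± 0.13, adjusted p = 5.99e-07). The mitochondrial gene COX3 had 461, 577, 394 and 352 CPM, against 801, 789, 956 and 1298 CPM (-1.11 ± 0.16), without overlap.

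Of 16 citric acid cycle genes 15 fell and of 19 glycolysis genes 15 fell, with none higher in either list. The dehydrogenase subunit idhg-2 had 2.96 to 4.15 CPM, against 33.9 to 39.3 CPM (-3.36 ± 0.12), and the malate dehydrogenase mdh-2 had 342, 311, 240 and 229 CPM, against 827 to 836 CPM (-1.57 ± 0.15). The near-identical glyceraldehyde phosphate dehydrogenases gpd-2 and gpd-3 fell, gpd-2 to 74.6 to 91.8 CPM against 554 to 590 CPM (-2.73 ± 0.07). The phosphofructokinase pfk-1.2 had 0.227, 0.061, 0.926 and 0.936 CPM, against 9.14 to 11.0 CPM (-4.18 ± 0.55).

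Genes of fatty acid synthesis fell, and those of fatty acid oxidation moved in both directions. Of 19 fatty acid synthesis genes 14 fell and 0 rose. The stearoyl-CoA desaturase fat-7 (chromosome V, 7151353 to 7153146) had 4.66, 4.44, 2.15 and 2.55 CPM at day 8, against 244 to 256 CPM in young adults (-6.19 ± 0.23, adjusted p = 3.90e-12). The elongase elo-5, needed for branched-chain fatty acids, had 49.3 to 53.2 CPM, against 257 to 268 CPM (-2.36 ± 0.05), and elo-6 fell by 2.90 ± 0.10 on the log2 scale. Of 26 genes for mitochondrial fatty acid oxidation 8 rose (30.8%) and 12 fell (46.2%). Against the background of 30.7% and 34.6%, these counts are no result about the list, although single members were far apart. The acyl-CoA synthetase acs-2 had 158, 167, 159 and 148 CPM, against 9.37, 10.4, 12.0 and 11.8 CPM (3.86 ± 0.10, adjusted p = 1.25e-13), and the carnitine transferase cpt-3 had 6.51 to 17.3 CPM, against 0.108 to 0.360 CPM (5.72 ± 0.40). The acyl-CoA dehydrogenase acdh-1, a dietary sensor gene, fell to 60.2 to 72.5 CPM, against 1114 to 1150 CPM (-4.05 ± 0.24).

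Autophagy genes rose. Of 27 tested genes 24 rose, 7 by at least 2-fold, and 0 fell, with a median of 0.75. Their sum was 2541, 2578, 2718 and 2846 CPM at day 8, against 1412 to 1442 CPM. The adaptor epg-2 (chromosome I, 2300086 to 2302813), which links cargo to autophagosomes in embryos, had 125, 127, 162 and 170 CPM, against 8.01 to 9.01 CPM (4.09 ± 0.13, adjusted p = 6.90e-13). The cargo receptor sqst-1 had 129, 132, 271 and 297 CPM, against 28.3 to 32.9 CPM (2.78 ± 0.28). The autophagosome marker lgg-1 had 369 to 462 CPM, against 200 to 218 CPM (0.99 ± 0.09), with all D8_Fed libraries above all YA_Fed libraries.

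In the proteasome 20 of 33 genes fell, 0 rose, and the median of -0.30 was 0.22 with library totals as the only scaling. The regulatory subunit rpn-1 overlapped between the ages, with 400 to 547 CPM at day 8 and 539 to 556 CPM in young adults (-0.23 ± 0.12, adjusted p = 0.112). Of 13 small heat shock genes 8 rose and 5 fell. Among those that rose were the stress-inducible hsp-16.41, at 5.71, 13.6, 23.5 and 25.9 CPM against 0.360 to 0.824 CPM (4.89 ± 0.47) and hsp-16.2, at 6.69 to 27.3 CPM against 0.533 to 0.821 CPM (4.69 ± 0.45). Their relative hsp-25 fell to 19.1 to 24.4 CPM, against 118.9 to 125 CPM (-2.43 ± 0.07).

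Of 22 cytosolic chaperone genes 15 fell and 2 rose. Stress-inducible hsp-70 had 8.50, 13.0, 33.1 and 31.2 CPM at day 8, against 1.24 to 1.89 CPM (3.76 ± 0.40, adjusted p = 5.29e-07), and constitutive hsp-1 had 2617 to 2984 CPM, against 3848 to 4090 CPM (-0.55 ± 0.07), a call lost with library totals only. In the endoplasmic reticulum list of 20 genes 10 rose and 5 fell. The sensor kinase pek-1 rose to 76.0 to 90.2 CPM, against 36.0 to 38.8 CPM (1.14 ± 0.06), as did atf-6 (1.24 ± 0.11), while the transcription factor atf-4 fell to 24.6 to 33.98 CPM, against 111 to 116 CPM (-1.97 ± 0.12).

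Genes that the insulin-regulated factor DAF-16 is known to raise were mostly higher in fed day 8 animals, with 10 of 12 tested higher and 2 lower (median 1.61). The metallothionein mtl-1 had 33.5, 34.7, 23.9 and 18.4 CPM, against 0.288 to 0.544 CPM (5.92 ± 0.35, adjusted p = 7.91e-10). Isocitrate lyase, icl-1, of the glyoxylate cycle, had 665, 632, 548 and 503 CPM, against 123 to 135 CPM (2.19 ± 0.10), and the desiccation gene lea-1 had 698 to 973 CPM, against 358 to 383 CPM (1.11 ± 0.12). The lysozyme lys-7 had 464, 404, 108 and 85.2 CPM, against 25.2 to 29.1 CPM (3.30 ± 0.57), all above the young range though far apart between the pairs. Of 24 nutrient sensing regulators 11 rose and 3 fell, with the insulin receptor daf-2 at 255 to 350 CPM, against 184 to 192 CPM (0.68 ± 0.10), and the kinase pdk-1 at 37.3 to 55.1 CPM, against 14.8 to 17.5 CPM (1.53 ± 0.14).

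Antioxidant enzymes did not move one way: 6 of 17 rose (35.3%) and 8 fell (47.1%). The background was 30.7% and 34.6%, so with so few members the counts are no result about the list. The extracellular superoxide dismutase sod-4 had 14.0 to 19.9 CPM at day 8, against 6.49 to 7.35 CPM (1.32 ± 0.12, adjusted p = 1.11e-07), and the catalase ctl-3 rose by a similar amount (1.20 ± 0.12). The cytosolic sod-1 fell to 101 to 126 CPM, against 170 to 178 CPM (-0.63 ± 0.08). Methionine sulfoxide reductase, msra-1, had 13.4 to 33.5 CPM, against 273 to 284 CPM (-3.55 ± 0.25). Of the 4 metallothionein and ferritin genes 3 rose and 1 fell: ftn-1 had 18.9, 18.8, 9.09 and 6.35 CPM, against 1.17 to 2.12 CPM (2.97 ± 0.35), and the more abundant ftn-2 had 69.6 to 96.2 CPM, against 223 to 240 CPM (-1.48 ± 0.10).

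Of 151 C-type lectins 45 rose (29.8%) and 63 fell (41.7%), and of 62 antimicrobial peptide genes 20 rose (32.3%) and 25 fell (40.3%). These shares are near the background of 30.7% higher and 34.6% lower, so the counts are no result about either family, although single members were far apart between the ages. The lectin clec-266 (chromosome X, 6617393 to 6622915) had 322, 321, 695 and 793 CPM at day 8, against 0.991, 1.97, 1.92 and 1.39 CPM (8.40 ± 0.45, adjusted p = 2.26e-10). At the other end clec-79 had 0.122 to 0.644 CPM, against 24.0 to 26.8 CPM (-6.18 ± 0.45). The saposin-like spp-17 fell to 15.1 to 21.97 CPM, against 182 to 209 CPM (-3.40 ± 0.12).

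Of 15 tested lysozymes 5 rose (33.3%) and 7 fell (46.7%). Against the background of 30.7% and 34.6%, these counts are no result about so small a list. The invertebrate-type ilys-3, which acts on bacteria in the gut, had 22.5, 27.7, 12.5 and 12.3 CPM, against 0, 0.0288, 0.0540 and 0.0328 CPM (9.22 ± 0.55, adjusted p = 8.85e-10), and lys-3 had 5.89, 9.55, 28.9 and 27.4 CPM, against 0.0576 to 0.288 CPM (6.80 ± 0.71). More abundant ilys-5 fell to 145, 144, 42.7 and 29.1 CPM, against 450 to 486 CPM (-2.39 ± 0.47). Chitinase, cht-1 (chromosome X, 3397613 to 3400017), had 373, 378, 536 and 542 CPM, against 4.72, 5.44, 5.16 and 5.63 CPM (6.45 ± 0.16, adjusted p = 8.08e-14).

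The infection response list, made of irg and pals genes, had 29 of 44 tested members higher, 28 by at least 2-fold, and 7 lower (median 1.79), while its summed CPM was lower at day 8, at 286 to 321 CPM against 930 to 956 CPM. Within it the abundant irg-7 fell to 117 to 208 CPM, against 711 to 728 CPM (-2.18 ± 0.15, adjusted p = 3.13e-09). F-box genes, which select proteins for ubiquitin ligases, rose in 195 of 292 tested cases and fell in 42, with a median of 2.21. Examples are fbxb-66, with 13.9, 17.4, 36.1 and 38.9 CPM, against 0.0639 to 0.173 CPM (7.97 ± 0.56), and fbxb-54, with 12.4 to 22.1 CPM, against 0.377 to 0.448 CPM (5.41 ± 0.26). The lowered fbxa-72 had 2.83 to 3.51 CPM, against 72.1 to 79.2 CPM (-4.58 ± 0.21). Many F-box genes are tandem copies, so reads may be shared between them.

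Detoxification enzymes differed by family. Cytochrome P450 genes rose in 34 of 70 cases and fell in 16, UDP-glucuronosyltransferases rose in 14 of 64 and fell in 38, and glutathione S-transferases rose in 2 of 43 and fell in 24. The P450 cyp-13A5 had 31.5, 31.8, 53.3 and 47.3 CPM at day 8, against 0.351 to 0.927 CPM (5.81 ± 0.36, adjusted p = 1.42e-09). The transferase ugt-47 had 4.59 to 7.05 CPM, against 66.5 to 75.01 CPM (-3.59 ± 0.15), and gst-10 had 2.67 to 3.92 CPM, against 39.1 to 45.6 CPM (-3.69 ± 0.24). Flavin monooxygenase fmo-2 (chromosome IV, 10682524 to 10684367), whose raised expression extends worm lifespan, had 57.4, 63.5, 144 and 147 CPM, against 0.991, 0.893, 0.608 and 1.31 CPM (6.77 ± 0.36, adjusted p = 2.30e-10). Of 56 transthyretin-related genes 36 fell and 12 rose, with ttr-51 higher at 344 to 378 CPM, against 122 to 129 CPM (1.504 ± 0.07).

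**Figure D4:**
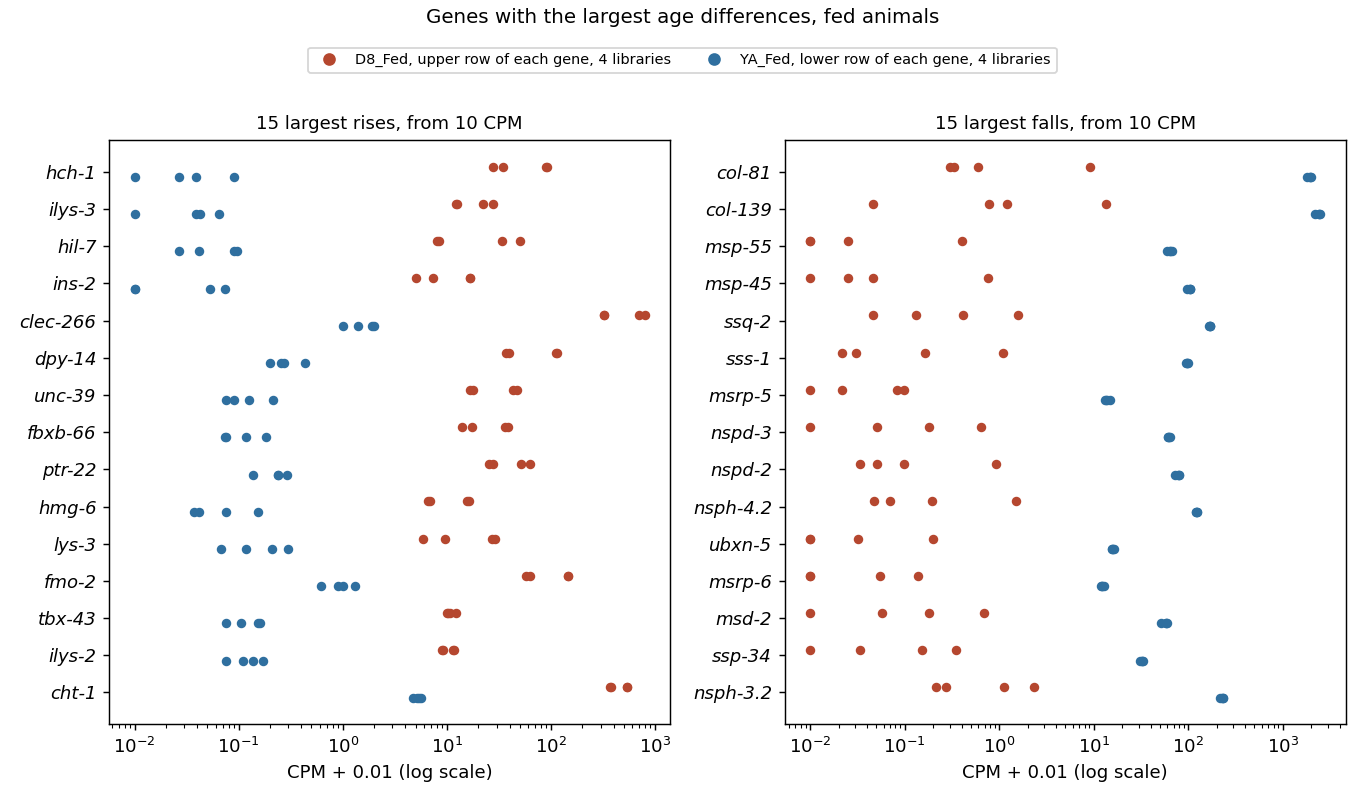
CPM plus 0.01 (log scale) of the 15 largest rises and 15 largest falls by log2 fold change, among genes with a lettered symbol and 10 CPM or more on average in the age with the higher level, with at most 2 genes of 1 symbol prefix in each direction; each point is 1 library, D8_Fed in the upper row of each gene and YA_Fed in the lower. No gene's libraries overlap between ages, since the rule required it, and 1 D8_Fed library, number 3, lies to the right of the others for many of the falls.

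The 15 largest rises were taken by size among called genes with a lettered symbol, no overlap between ages and 10 CPM or more on average in the age with the higher level, with at most 2 genes per symbol prefix. They joined the genes given above with hil-7, a linker histone, unc-39, a homeobox factor of mesoderm, hmg-6, tbx-43, a T-box factor, and ilys-2. Of these hil-7 had 8.38, 8.09, 33.8 and 50.4 CPM at day 8, against 0.0164 to 0.0864 CPM (8.78 ± 0.91), and tbx-43 had 9.93 to 12.2 CPM, against 0.0656 to 0.149 CPM (6.53 ± 0.32). As with hch-1, the sizes for ilys-3 and ins-2 rest on few counts, since the YA_Fed libraries together hold only 8 and 7 counts of them. For hmg-6 the fold change was 7.37 ± 0.56, and 8.08 without YA_Fed library 2. The 15 largest falls were 2 col genes, col-81 and col-139, and 13 others: msp-55, msp-45, ssq-2, sss-1, msrp-5, msrp-6, nspd-2, nspd-3, nsph-3.2, nsph-4.2, ubxn-5, msd-2 and ssp-34. The msp and ssp names mark major sperm proteins and their small relatives. For col-81 the levels were 0.323, 0.589, 9.05 and 0.290 CPM, against 1829 to 1995 CPM (-9.50 ± 1.27; -12.20 without D8_Fed library 3). For col-139 they were 0.0359, 1.20, 13.4 and 0.765 CPM, against 2223 to 2482 CPM (-9.23 ± 1.43; -11.70 without it). Leaving out D8_Fed library 3 moved 14 of these 15 folds by more than 1.5 times, all to larger falls, and msrp-5 was the exception.

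Among 155 symbol families with at least 10 tested members, the largest shares of 2-fold rises were in fbxb with 93 of 99, tbx with 13 of 17, fbxc with 30 of 43, pals with 25 of 36 and skr with 13 of 19. The largest shares of 2-fold falls were in msp with 31 of 31, ssp with 11 of 12, spe with 25 of 29, vha with 14 of 20 and nspg with 8 of 13. The tbx family holds T-box transcription factors of development and skr the adaptors that pair with F-box proteins. By mean CPM over the 8 fed libraries of both ages, the 12 most abundant genes were WBGene00004677, the 6 vitellogenins, eef-1A.1, eef-2, hsp-1, unc-54 and rpl-3. The annotated pseudogene WBGene00004677 (chromosome I, 15060299 to 15061150) is a ribosomal RNA pseudogene and held 0.582% to 6.22% of the counts in the fed libraries. It had 21881, 26765, 4596 and 10884 CPM at day 8, against 29824, 52909, 23999.9 and 78493 CPM, overlapping between ages. Its call (-1.53 ± 0.55, adjusted p = 0.0239) was lost without D8_Fed library 3 or 4 or YA_Fed library 4 and with library totals only.

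Along the genome, 2-fold rises made up 20.98% of tested genes on chromosome II, 21.8% on V and 21.6% on X, against 12.8% on I, 12.1% on III and 15.5% on IV. Falls made up 27.1% on chromosome IV and 18.6% to 23.4% on the other nuclear chromosomes. By exon length, and with no test, 28.9% of the shortest length class (73 to 841 bases) were lower by at least 2-fold, against 16.0% of the longest of the 4 classes (1923 to 56044 bases). Of 951 tested pseudogenes 26.6% were higher by at least 2-fold, against 17.3% of 16808 protein-coding genes.

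The same ages were also sampled after fasting, in 8 separate libraries, where 5563 genes were higher at day 8 (31.2%) and 6580 lower (36.9%). Age differences in fed and fasted animals had a Pearson r of 0.870 over 17844 genes, which are not independent replicates. Of the 3172 genes higher by at least 2-fold in fed animals 2364 (74.5%) were called higher in fasted animals, and of the 4030 lower 3569 (88.6%) were called lower. All 15 of the largest falls and 14 of the 15 largest rises were called in the same direction after fasting. The size of the age difference itself differed by feeding state for 2390 genes in which it was higher when fed (13.4%) and 2249 in which it was lower (12.6%), by the interaction term of the same fit. Same-numbered D8_Fed and D8_Fast libraries deviated together, at correlations of 0.33 to 0.56, while those of YA_Fed and YA_Fast libraries were -0.00 to 0.04. Differently numbered fed and fasted libraries were not compared. A link by number therefore cannot be told apart from the pairs of day 8 libraries that both feeding states show. With a block for the replicate number within each age, the interaction called 4172 genes higher and 4834 lower. Of the 4639 genes called without the block, 4610 were called in the same direction with it.

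Among the 15 largest rises 8 had such a difference, or 9 with the block, and 0 of the 15 largest falls did in either fit. For fmo-2 the age difference was 6.77 in fed animals and -1.52 in fasted animals, and for ptr-22 it was 7.56 and 1.45. Genes of fat metabolism and stress were among them: acs-2 was 3.86 fed and -2.56 fasted, icl-1 2.19 and -2.99, mtl-1 5.92 and 0.06, fat-7 -6.19 and -0.37, elo-5 -2.36 and 1.18, and irg-8 -2.68 and 2.80. The yolk gene vit-1 was -5.41 fed and -0.34 fasted, while vit-2, with -1.29 and -1.42, had no called difference in either fit. For whole lists, the median of the DAF-16 list was 1.61 fed and -1.12 fasted, that of lysozymes -0.40 and 1.56, and that of the hypodermis list -1.76 and -0.19, while body wall muscle was -2.77 and -2.55. The differences between list medians were not tested.

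**Figure D5:**
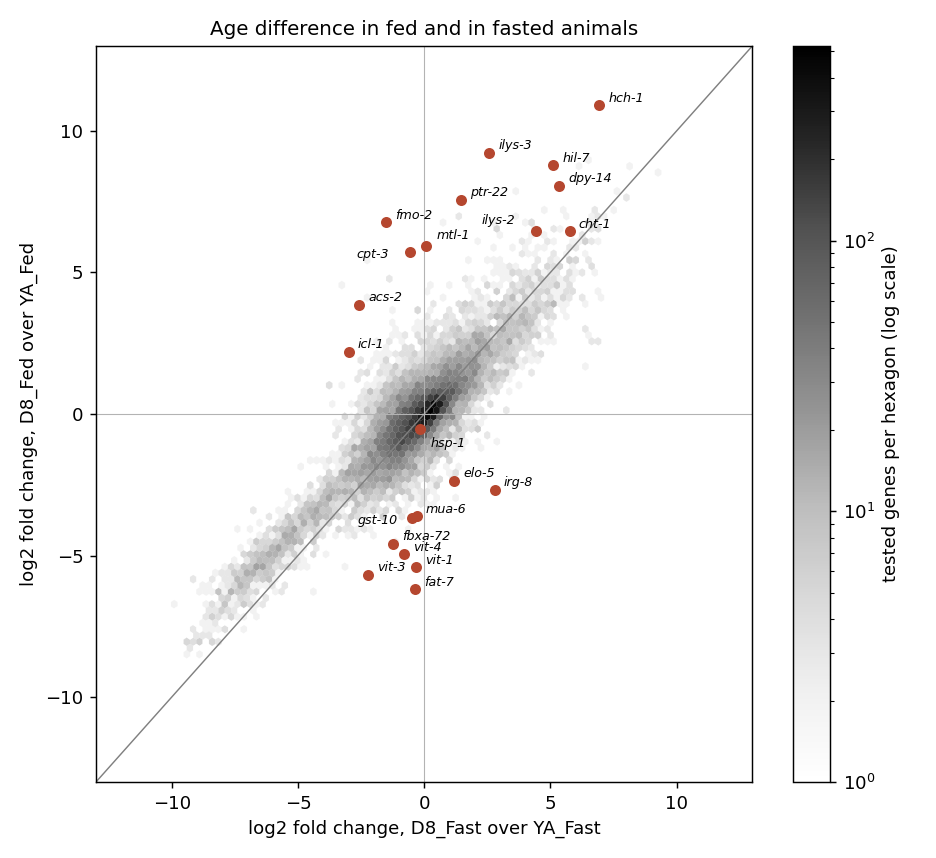
Log2 fold change of day 8 over young adult in fed libraries (vertical axis) and in fasted libraries (horizontal axis) for 17844 tested genes, shaded by the number of genes per hexagon, with the line of equal change. Named points are genes whose age difference differed by feeding state; acs-2, icl-1 and fmo-2 lie at upper left, above 0 when fed and below 0 when fasted, and elo-5 and irg-8 at lower right.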

How the data were processed

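PolyA RNA of whole nematodes was sequenced in 16 libraries, 4 for each age and feeding state, grouped by the labels. The authors deposited estimated counts (expected counts) per gene; the submitters' processing notes name DESeq and the build WBcel235, while for aligner, counter and strand handling the entry is: not given in the sources used here. Counts were rounded and tested with edgeR 4.0.16 in R 4.3.3 (TMM scaling, robust quasi-likelihood fit over all 16 libraries, filterByExpr, Benjamini-Hochberg adjustment); fold changes are D8 over YA with standard errors, and CPM uses TMM-scaled totals. Of 21882 genes 4038 were filtered out for low counts, 202 of them at 0 throughout. The approach was tested on simulated data. The simulated counts held few changed genes and no pairs of day 8 libraries. They therefore cannot speak to the choice of scaling or to those pairs.

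The members and gene lists were chosen with earlier results of these data known. Genes are named by 3 rules: the 15 largest rises and 15 largest falls without overlap, from 10 CPM, at most 2 per symbol prefix; up to 3 rises and 3 falls plus the most abundant members of each list, from 10 CPM; and the 12 most abundant genes over the fed libraries. Of each list only some of these are printed; end-1, end-3, med-1 and med-2 were added after their values were seen. Symbols, types and coordinates come from the Ensembl WBcel235 annotation, which held 21714 of the IDs. Same-numbered D8_Fed and YA_Fed libraries did not deviate together, and the main fit did not pair the ages by number. The split between the pairs of day 8 libraries dominates the D8_Fed deviations, so these correlations cannot decide whether the numbers link the ages. Same-numbered day 8 fed and fasted libraries did deviate together. Other scalings, filters, tools and left-out libraries were tried.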

Additional observations from a re-analysis of the deposited data

Results flagged for a closer look

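Within each group of 4 libraries, the gap of the farthest library to its neighbour was divided by the group's whole range, and a share above Dixon's critical value marks a library that stands apart. Over 148 genes and 296 groups this happened 18 times, where chance marks about 1 in 20 groups. In 9 of these D8_Fed library 3 was the high one. For col-139 it had 13.4 CPM, with the other D8_Fed libraries at 0.0359 to 1.20 CPM (share 0.913). Its col-81 level was 9.05 CPM, and the others lay at 0.290 to 0.589 CPM (share 0.966). For msp-45 it had 0.745 CPM, with the other D8_Fed libraries at 0 to 0.0359 CPM (share 0.952). Its msp-55 level was 0.396 CPM, and the others lay at 0 to 0.0149 CPM (share 0.962). For msp-59 it had 1.91 CPM, with the other D8_Fed libraries at 0.0598 to 0.349 CPM (share 0.844). Its nspd-2 level was 0.926 CPM, and the others lay at 0.0239 to 0.0892 CPM (share 0.928). For nsph-4.2 it had 1.48 CPM, with the other D8_Fed libraries at 0.0371 to 0.183 CPM (share 0.899). Its sss-1 level was 1.08 CPM, and the others lay at 0.0120 to 0.156 CPM (share 0.865). For ubxn-5 it had 0.188 CPM, with the other D8_Fed libraries at 0 to 0.0223 CPM (share 0.881).

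The remaining genes had other libraries apart. D8_Fed library 1 was the highest for hsp-1, at 2984 CPM, with the others of its group at 2617 to 2667 CPM (share 0.863). For hsp-25, D8_Fed library 2 was low at 19.1 CPM, against 23.7 to 24.4 CPM in the rest of its group (share 0.862). YA_Fed library 1 was the lowest for hsp-25, at 118.9 CPM, with the others of its group at 124 to 125 CPM (share 0.848). For msd-2, YA_Fed library 4 was low at 51.9 CPM, against 58.7 to 59.5 CPM in the rest of its group (share 0.895). YA_Fed library 2 was the highest for perm-2, at 568 CPM, with the others of its group at 537 to 540.1 CPM (share 0.889). For rme-2, YA_Fed library 4 was low at 988 CPM, against 1090.5 to 1102 CPM in the rest of its group (share 0.898). YA_Fed library 1 was the highest for sdz-28, at 1.06 CPM, with the others of its group at 0.519 to 0.554 CPM (share 0.934). For vet-2, YA_Fed library 2 was low at 11.8 CPM, against 13.2 to 13.2 CPM in the rest of its group (share 0.964). YA_Fed library 4 was the lowest for vit-4, at 13964 CPM, with the others of its group at 14393 to 14437 CPM (share 0.907).

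The age difference itself differed between fed and fasted animals, by the interaction term of edgeR's quasi-likelihood fit, for 22 genes: those among the largest changes and the most abundant genes with such a difference, and the 10 with the largest difference among the 51 other named genes that had one. Each value is the log2 age difference in fed animals minus that in fasted animals, with its adjusted p. It was 3.97 for hch-1 (adjusted p = 0.00886). For ilys-3 it was 6.64 (adjusted p = 1.88e-06). hil-7 had a difference of 3.67 (adjusted p = 0.0265). It was 2.72 for dpy-14 (adjusted p = 0.00522). For ptr-22 it was 6.11 (adjusted p = 1.04e-06). fmo-2 had a difference of 8.29 (adjusted p = 1.93e-09). It was 2.03 for ilys-2 (adjusted p = 2.46e-04). For cht-1 it was 0.69 (adjusted p = 0.0126). vit-3 had a difference of -3.48 (adjusted p = 1.07e-04). It was -4.14 for vit-4 (adjusted p = 1.36e-06). For vit-1 it was -5.08 (adjusted p = 1.26e-09). hsp-1 had a difference of -0.36 (adjusted p = 0.0152). It was 6.42 for acs-2 (adjusted p = 7.41e-14). For cpt-3 it was 6.27 (adjusted p = 1.31e-07). mtl-1 had a difference of 5.86 (adjusted p = 6.35e-08). It was -5.82 for fat-7 (adjusted p = 6.35e-10). For irg-8 it was -5.48 (adjusted p = 3.31e-07). icl-1 had a difference of 5.18 (adjusted p = 1.99e-12). It was -3.54 for elo-5 (adjusted p = 4.10e-14). For fbxa-72 it was -3.33 (adjusted p = 1.74e-07). mua-6 had a difference of -3.32 (adjusted p = 4.49e-08). It was -3.19 for gst-10 (adjusted p = 1.52e-06).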

How the results depend on the processing

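With library totals as the only scaling, 9393 genes were called higher and 4109 lower, and 4980 were higher by at least 2-fold. The difference between the fed and fasted age effects was called higher for 3752 genes and lower for 3870 without D8_Fed replicates 1 and 2. Among alternatives added after seeing the data, it was called higher for 4172 genes and lower for 4834 with a replicate block within each age, higher for 4436 and lower for 4347 without day 8 replicates 1 and 2 in both feeding states, and higher for 3621 and lower for 4314 without day 8 replicates 3 and 4 in both; the cause was not tested. Every other count of calls stayed within 1.5 times its reported value under each alternative run. Leaving out 1 library gave 5215 to 5881 genes higher and 5850 to 6230 lower. With the 8 fed libraries alone, 5032 genes were called higher and 5916 lower. DESeq2 called 6468 higher and 5664 lower, and gave no adjusted p for 116 tested genes, among them 24 of 31 msp genes. The replicate block gave 5587 higher and 6456 lower; same-numbered D8_Fed and YA_Fed libraries correlated at 0.001 to 0.034, and 1 of 4 day 8 libraries matched its own number best. Summing day 8 libraries by pair, added after seeing the data, gave 5875 higher and 5651 lower. Of 148 named genes 136 kept their call under each alternative that gave them an adjusted p. DESeq2 gave none for 10 of the 15 largest falls, so their calls were not checked by it. With library totals only, the fold change of eef-2 was 0.055, that of rme-2 0.39 and that of rpn-1 0.28, and without D8_Fed replicates 1 and 2 that of cpr-1 was -0.13; the cause was not tested. Medians of the synapse, peptide, chaperone, proteasome, antimicrobial, lysozyme, translation factor, ribosome biogenesis and mitochondrial fatty acid oxidation lists changed sign with library totals only. Counts divided by 2, which lowers the totals but adds no sampling noise, gave 5385 higher and 6125 lower. The planned count of promoter motifs was not run.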
